A study of Mus musculus with 6 samples.

Results

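Transcripts of mouse cortical neurons after 60 min at 42 °C were compared with those after 15 min at 42 °C, with 2 libraries at each time. A gene entered the comparison when its mean over these 4 libraries reached 5, which gave 11575 of the 55538 genes in the table. The lowest mean that entered was 5.0005 and the highest that did not was 4.9994. The comparison asks what differs between early and late heat, and both groups had been heated, so it does not rest on the control libraries.

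The cells came from the cortex of C57BL/6 embryos at day 14.5 and were rested for 2 h at 37 °C in a medium with serum. One group then spent 15 min at 42 °C and the other 60 min, while a control group stayed at 37 °C for 60 min. No transgene, knockout or drug is described for any group. No library from 15 min at 37 °C was analysed here, so time at 42 °C and time in culture cannot be told apart. Total RNA was sequenced after removal of ribosomal RNA, without poly(A) selection, as single reads of 100 bp. The labels do not say whether the libraries of a group came from separate embryos or cultures, so p-values measure the spread between these libraries, which may be technical.

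The unit is the authors' normalised signal of a gene, close to TPM. The totals of the 4 libraries ran from 947912 to 1056383, and sequencing depth is unknown. The 60 min libraries had 21673 and 21796 genes at 1 or above and the 15 min libraries 19035 and 19853. Mitochondrial ribosomal RNA took 4.92% and 6.14% of the signal at 15 min and 5.14% and 9.39% at 60 min. Summed over 8 neuronal markers the signal was 2234 and 2244 at 15 min and 1986 and 1978 at 60 min. Over 7 markers of progenitors and radial glia it was 3248 and 2795, then 3065 and 2649. Vim alone made up 2200 and 2017 of these sums at 15 min and 2180 and 1945 at 60 min. The preparation labelled as neurons thus held transcripts of progenitor markers too, though most of their sum came from that gene. No marker of microglia and macrophages (19 genes) or of endothelial and mural cells (18 genes) reached the mean of 5, and each of these lists summed to between 31.2 and 41.2 in the 4 libraries. Astrocyte markers, of which 6 of 13 reached the mean of 5 and several are shared with radial glia, summed to 601 and 543 at 15 min and to 472 and 362 at 60 min. Erythroid markers (6 of 10) summed to 276 and 318, then 396 and 313, fibroblast and meningeal markers (2 of 13) to 169 and 140, then 181 and 141, and oligodendrocyte markers (2 of 12) to 24.8 to 27.8. In such bulk samples, fewer cells of a type and less RNA per cell cannot be told apart.

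Heat unfolds proteins and frees the transcription factor HSF1, which binds repeats of GAA in promoters and switches on genes of chaperones. Heat also slows or arrests splicing and the termination of transcription at many other genes. When transcription of a gene stops, messages of short half-life, such as those of immediate early genes and of many developmental regulators, are lost first. An embryonic cortical culture holds radial glia, intermediate progenitors and young neurons, whose identities are set by such regulators.

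The transcripts that separated 60 min from 15 min most clearly were those of inducible chaperones. Hspa1a (ENSMUSG00000091971), an inducible cytosolic Hsp70, had signals of 4.92 and 2.87 at 15 min and of 794 and 713 at 60 min. Its near-identical copy Hspa1b (ENSMUSG00000090877) had 6.18 and 4.25, then 674 and 632. The control libraries had 2.59 and 1.54 for Hspa1a and 1.82 and 2.00 for Hspa1b. Both genes thus lay above both controls at 15 min, for Hspa1a by as little as 2.87 against 2.59. Most of these 15 min and control values lie under 5. Reads can be divided between the copies, so their sum is safer. It was 9.10 ± 2.81 at 15 min and 1410 ± 87.5 at 60 min (SD, n = 2 each), a ratio of 154. By limma's test the log2 change was 7.30 ± 0.24 (SE) for Hspa1a and 6.74 ± 0.19 for Hspa1b, each with an adjusted p of 0.00198.

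Hspb1 (ENSMUSG00000004951), the small heat shock protein Hsp27, had 6.98 and 7.41 at 15 min and 62.0 and 61.4 at 60 min. It rose by 2.94 ± 0.13 on the log2 scale (adjusted p = 0.00425), and its libraries agreed closely within each group. Hspa1a, Hspa1b and Hspb1 kept their calls whichever of the 4 libraries was left out. Fitted with the control libraries as well, Hspb1 had an adjusted p of 0.0559.

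On the lower side, 2 protein-coding genes passed. Btg2 (ENSMUSG00000020423), an antiproliferative gene of neurogenic progenitors and a target of p53, had 35.2 and 34.0 at 15 min and 9.59 and 9.21 at 60 min. It fell by 1.78 ± 0.13 on the log2 scale (adjusted p = 0.0439). Mat2a (ENSMUSG00000053907), which encodes the enzyme subunit that makes S-adenosylmethionine, had 109 and 115, then 31.5 and 34.0. It fell by 1.74 ± 0.14 (adjusted p = 0.0490). Each of these genes lay within a narrow range at each time and the groups were far apart. Both calls lie near the threshold: with 1 library left out the adjusted p of Btg2 ran from 0.109 to 0.181 and that of Mat2a from 0.119 to 0.169. With median-of-ratios scaling these were 0.0513 and 0.0655.

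The other genes that passed are loci of less certain identity. Gm47551, a long non-coding RNA that overlaps Fcho2 on the opposite strand, was listed at 0 in both 15 min libraries and at 84.7 and 62.6 at 60 min (limma adjusted p = 0.00212). Its control libraries stood at 15.5 and 0, and its adjusted p was 0.29 when they entered the fit. Rnu3a, a gene of the U3 small nucleolar RNA that guides ribosomal RNA processing, was listed at 0 at 15 min and at 41.4 and 58.9 at 60 min (adjusted p = 0.00425). U3 has similar copies in the genome and is short, so the value is uncertain. Gm48565, a locus of no assigned type, had 0.925 and 0.877 at 15 min and 21.96 and 38.1 at 60 min (adjusted p = 0.0439). It kept its call with each library left out, but its adjusted p was 0.0513 with median-of-ratios scaling, 0.0654 with a pseudocount of 5 and 0.0642 with the control libraries in the fit. The gene ENSMUSG00002074875, which has no symbol in the table used, had 42.3 and 69.8 at 15 min and was listed at 0 at 60 min (adjusted p = 0.00653). Gm47551, Rnu3a, Gm48565 and ENSMUSG00002074875 thus reached the mean of 5 through a single time only. Hspa1a, with a mean of 3.89 at 15 min, did so too. The zeros of Gm47551, Rnu3a and ENSMUSG00002074875 have no spread. The size of such changes depends on the pseudocount: the log2 change of Gm47551 was 9.51 at 0.1, 6.21 at 1 and 3.96 at 5.

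**Figure D1:**
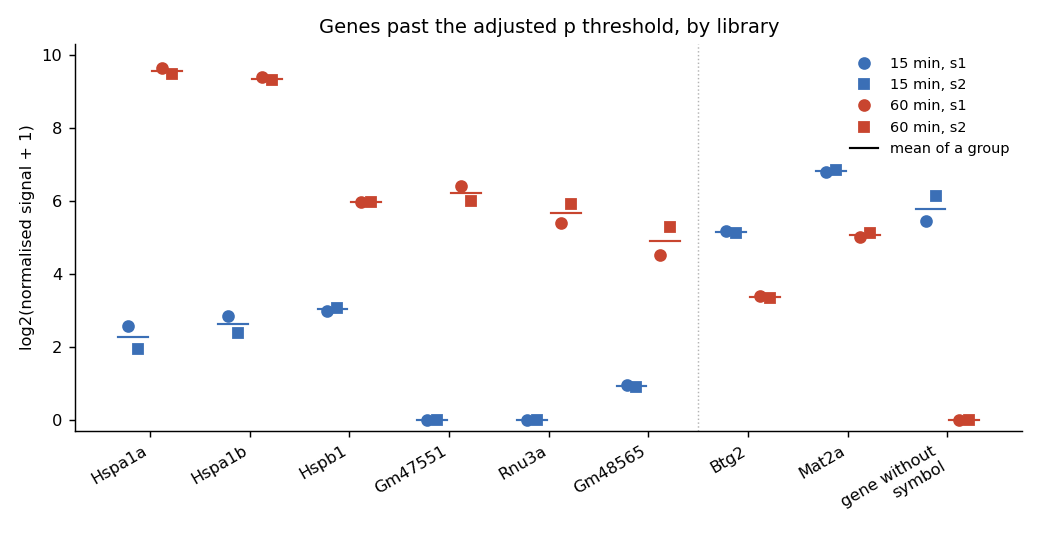
Normalised signal of the 9 genes that passed, as log2(value + 1), in the 2 libraries at 15 min (blue) and the 2 at 60 min (red), with circles for s1, squares for s2 and a line at each group mean. The 15 and 60 min libraries do not overlap for any of the 9, and Hspa1a and Hspa1b lie farthest apart.

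At an adjusted p of 0.05, limma's test called 9 of the 11575 genes, which is 0.0778% of genes tested. Of these, 6 rose (0.0518%) and 3 fell (0.0259%). Before adjustment, 625 genes higher at 60 min (5.4%) and 1244 lower (10.7%) had a p under 0.05, against 578.75 by chance in both directions together. Both 60 min libraries lay above both 15 min libraries for 1796 genes (15.5%) and below both for 3681 (31.8%). Values were lower at 60 min for 7532 genes and higher for 4043, and the median log2 change was −0.10. Median-of-ratios scaling moves that median to −0.002, so the excess of lower genes depends on the scaling. Gene groups below are therefore set against the median of all genes, and their counts against these percentages. Among protein-coding genes alone, both 60 min libraries lay above both 15 min libraries for 10.6% and below for 34.7%.

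**Figure D2:**
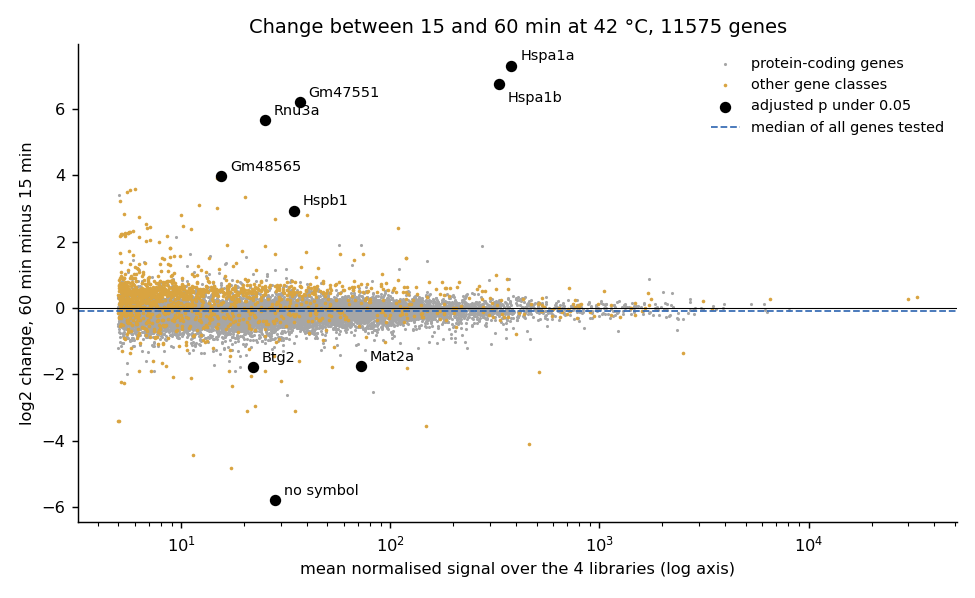
The log2 change from 15 to 60 min (y axis) against the mean normalised signal over the 4 libraries (x axis, log scale) for the 11575 genes, with protein-coding genes in grey, other classes in yellow and the 9 genes that passed in black. Most genes lie near the dashed median of −0.10, and the yellow points lie above it more often than the grey ones.

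The list of heat shock chaperones and their partners had higher values at 60 min. Of 45 tested, 39 lay above the median of all genes, and the median log2 change was 0.16. Both 60 min libraries lay above both 15 min libraries for 19 (42.2%) and below for 2 (4.44%). These shares were 15.5% and 31.8% over all genes and 10.6% and 34.7% over protein-coding genes. Hspa1a, Hspa1b and Hspb1 rose and the other 42 did not pass. Relative to all genes the list's median was 0.27. It ran from 0.16 to 0.37 under 2 other scalings, with a lower floor and with each library left out. Of these scalings, median-of-ratios shifts all genes nearly alike, so it could hardly move a median relative to all genes.

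Among chaperones that did not pass, the Hsp110 gene Hsph1, which exchanges nucleotide on Hsp70, came nearest. It had 124 and 110 at 15 min and 396 and 470 at 60 min, a log2 change of 1.88 ± 0.17 with an adjusted p of 0.0663. Abundant cytosolic chaperones differed by less. Hsp90aa1, the inducible Hsp90, had 1384 and 1055, then 2290 and 2139. Hspa8, the constitutive Hsp70, had 1779 and 1576, then 2331 and 2386. In both genes the 60 min libraries lay above the 15 min libraries, while Hsp90ab1, the constitutive Hsp90, overlapped at 2825 and 2123, then 3304 and 2598.

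Hsp40 proteins deliver clients to Hsp70 and BAG proteins release them from it. Dnaja4, an Hsp40, had 3.82 and 2.66 at 15 min and 8.17 and 7.61 at 60 min. Dnajb1, the Hsp40 best known from heat shock, had 19.6 and 19.5, then 27.7 and 32.4. Bag3, a co-chaperone of Hsp70 in autophagy, had 5.81 and 5.40, then 10.1 and 9.77. These 3 had log2 changes of 1.08, 0.59 and 0.73 and did not overlap. Dnaja1 overlapped, with 853 and 585, then 964 and 738. The 2 members whose 60 min libraries were both lower were Dnajb5 (33.6 and 36.2, then 21.5 and 20.7) and Dnajb2 (29.0 and 30.1, then 20.7 and 22.8), both Hsp40 proteins.

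In mitochondria the chaperonin is made of Hsp60, encoded by Hspd1, and its lid Hsp10, encoded by Hspe1. Hspe1 had 283 and 235 at 15 min and 510 and 442 at 60 min, with a log2 change of 0.88. Hspd1 had 393 and 258, then 463 and 340, so its groups overlapped. Hsf1, whose product drives the response, had 21.5 and 25.7, then 24.96 and 26.4, a log2 change of 0.12 ± 0.15. Chordc1, a partner of Hsp90, had 76.6 and 80.3, then 102 and 116.

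Promoters of 5 of these genes are shown, and each holds letters of the kind that heat shock factor can bind. Dnajb1, Dnajb2 and Dnajb5 had windows without a match, and Hspa8, Hsp90aa1 and Hsp90ab1 were not matched to a window. The windows ran from 250 bases before to 50 after the start in RefSeq on GRCm38.p6, a build other than the authors' GRCm39. The letters searched on both strands were a pair of facing units, GAANNTTC or TTCNNGAA, and a run of 3 units, GAANNTTCNNGAA or TTCNNGAANNTTC, which contains pairs. Capitals mark these letters in the stretches below, which are given on the strand of the gene.
Hspa1b, chr17:34959315-34959362, minus strand: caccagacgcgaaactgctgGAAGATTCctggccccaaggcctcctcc
Hspb1, chr5:135887782-135887849, plus strand: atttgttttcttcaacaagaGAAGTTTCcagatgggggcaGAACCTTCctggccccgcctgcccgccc
Hsph1, chr5:149636268-149636389, minus strand: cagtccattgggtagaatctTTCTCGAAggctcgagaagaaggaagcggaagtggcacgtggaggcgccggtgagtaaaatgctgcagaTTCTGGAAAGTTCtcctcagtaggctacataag
Hspe1, chr1:55088039-55088096, plus strand: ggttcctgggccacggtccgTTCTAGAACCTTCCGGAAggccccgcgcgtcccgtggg
Chordc1, chr9:18292243-18292316, plus strand: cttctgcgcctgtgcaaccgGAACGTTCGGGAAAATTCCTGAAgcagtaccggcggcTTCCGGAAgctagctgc

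The stretch printed for Hspb1 held separate pairs, that of Hspe1 a run of units without a break, and that of Chordc1 a run and a pair. Hspa1a carries the printed Hspa1b stretch unchanged, and the whole windows of both copies differ at 4 of 300 bases. A pair was found in 15.1% of all 32851 promoter windows and in 13.6% of 8299 tested genes with a window. It was found in 20 of 39 chaperone genes with a window (51.3%). A run of 3 units was found in 0.603% of all windows and in 5 of the 39 chaperones (12.8%). Among protein-coding genes at least 2-fold higher without overlap a pair was found in 6 of 19 (31.6%), of which 5 are chaperones counted above. Of the 14 outside the chaperone list only Jun had one (7.14%). Among those at least 2-fold lower a pair was found in 10 of 95 (10.5%). A match is a match of letters and was not tested for binding.

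Of 15 further genes listed as heat shock factors or heat-induced, 8 lay above the median of all genes (median −0.00), and Rgs2 and Ier5, given below, had the smallest p. Several genes outside the chaperone list were among the smallest p-values on the higher side without passing. Uspl1, a SUMO protease of Cajal bodies, had 23.95 and 22.6 at 15 min and 79.3 and 101 at 60 min (limma adjusted p = 0.0663). In the annotation used here the span of Uspl1 overlaps that of Hmgb1 on the opposite strand. Overlap of their exons was not examined. Whether counting used strand is not stated, so reads of any stretch they share cannot be told apart. Hmgb1 had 1743 and 812, then 1523 and 802. The long non-coding RNA Gm43332, 124 bases from Uspl1 on the same strand, had 3.75 and 4.30, then 13.8 and 13.4.

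Sox21, a transcription factor of neural progenitors, had 38.3 and 37.2 at 15 min and 96.2 and 90.8 at 60 min (adjusted p = 0.0899). Txnip, an inhibitor of thioredoxin that cells induce under stress, had 16.04 and 16.98, then 37.9 and 32.0. Rgs2, a regulator of G-protein signalling, had 18.7 and 18.99, then 40.01 and 48.4. In all 3 genes the groups were well apart. Ccdc117, Apbb3, Ccdc63, Acrbp and the antisense RNA Hnf1aos1 also stood among the 15 named on this side, with log2 changes from 1.01 (Acrbp) to 2.17 (Hnf1aos1). Of these, Ccdc63 and Hnf1aos1 had under 3 at 15 min in both libraries.

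Immediate early genes, which respond to stimuli within minutes without new protein synthesis, split in direction. Of 50 tested, 27 lay above the median of all genes, and the list's median was −0.08. Both 60 min libraries lay above both 15 min libraries for 12 and below for 17, against 15.5% and 31.8% of all genes. Besides Btg2, none passed.

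On the higher side stood AP-1 and other early transcription factors. Jun had 76.1 and 85.7 at 15 min and 207 and 227 at 60 min, a log2 change of 1.41 ± 0.16 (adjusted p = 0.0941). Klf6, a Krüppel-like factor, had 53.6 and 82.1, then 128 and 176. Npas4, a factor induced by neuronal activity, was low throughout, at 2.00 and 3.24, then 6.34 and 11.96. Jun was thus separated by much more than its spread, whereas the 60 min libraries of Npas4 differed from each other by more than the lower of them did from 15 min.

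Atf3, a stress-induced partner of Jun, had 18.7 and 29.6 at 15 min and 36.4 and 38.3 at 60 min. Egr1 had 28.1 and 41.8, then 54.1 and 50.2. Fos overlapped, at 23.1 and 45.6, then 37.8 and 57.4. The matricellular gene Ccn1 had 47.0 and 72.2, then 101 and 105, and the stress gene Gadd45b 5.91 and 5.32, then 9.27 and 11.5.

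On the lower side stood Ier2 (51.6 and 60.6, then 30.2 and 35.8) and Arl4d, a small GTPase (7.09 and 9.85, then 2.93 and 3.67). Ier5, a gene that modulates HSF1 and is counted with the heat-induced genes above, had 43.3 and 44.2 at 15 min and 15.95 and 18.6 at 60 min (adjusted p = 0.0941).

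Proneural factors and markers of intermediate progenitors were the list with the lowest median among those of 10 or more genes. Proneural factors commit progenitors to the neuronal fate and act through Notch ligands. Of 25 tested, 21 lay below the median of all genes and the median log2 change was −0.47. Both 60 min libraries lay below both 15 min libraries for 18 (72.0%), and above for 0. The share below was 31.8% over all genes and 34.7% over protein-coding genes. Of the 25, only Btg2 passed over all genes, and it fell. Relative to all genes the list's median was −0.37, and it ran from −0.47 to −0.33 under the alternatives given for the chaperones.

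Neurog1, a proneural factor, had 10.5 and 14.2 at 15 min and 2.83 and 2.29 at 60 min. Neurog2, its partner in the dorsal cortex, had 139 and 161, then 72.2 and 71.9. Eomes, which marks intermediate progenitors, had 98.6 and 90.5, then 45.8 and 40.6. In these 3 genes the groups lay far apart compared with the spread, with log2 changes of −1.90, −1.04 and −1.11 and adjusted p of 0.106, 0.128 and 0.109. Neurod6, a factor of young projection neurons, had 243 and 289, then 128 and 157. The summed signal of 3 intermediate progenitor markers was 273 and 285 at 15 min and 128 and 122 at 60 min. These markers are Eomes, Neurog2 and Btg2, so the sum repeats values given above.

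**Figure D3:**
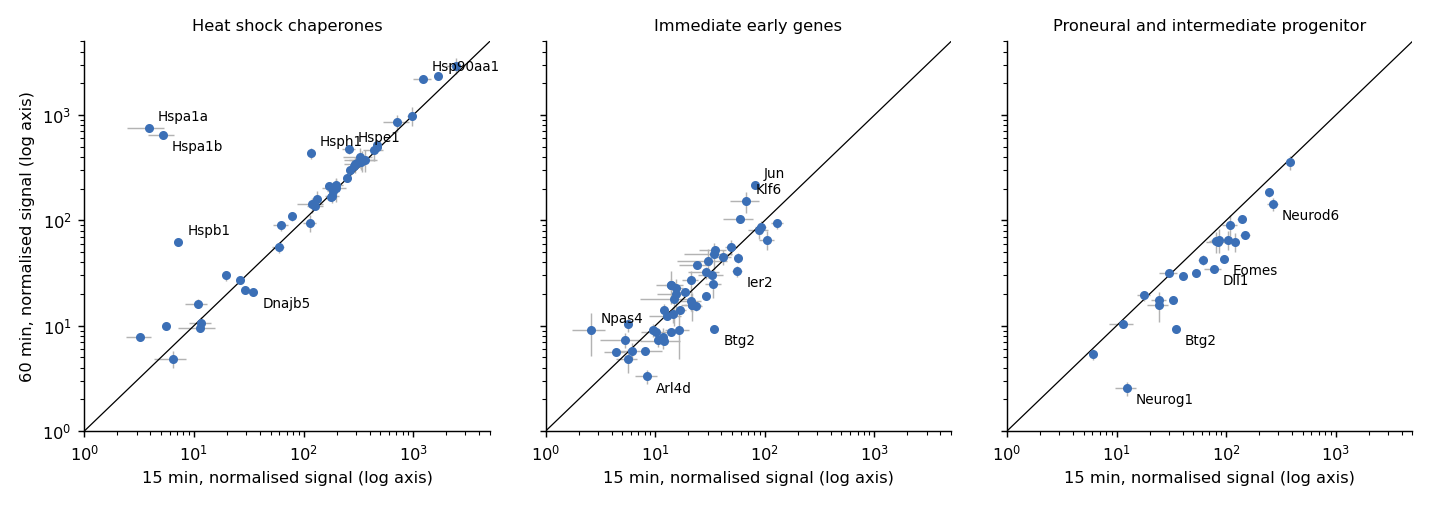
Mean normalised signal at 60 min (y axis) against 15 min (x axis), both on log scales, for the members tested of 3 lists, with bars of 1 SD (n = 2) and the line of equal values. Of 45 chaperones 36 lie above the line and 9 below it, immediate early genes lie on both sides and proneural and intermediate progenitor genes mostly below it.

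Notch signalling keeps neighbours of a committing cell in the progenitor state. Of 21 Notch genes 14 lay below the median of all genes (median log2 change −0.29). The 60 min libraries were below for 10 (47.6%) and above for 1 (4.76%). These shares were 31.8% and 15.5% over all genes and 34.7% and 10.6% over protein-coding genes. Lfng, a glycosyltransferase that modifies Notch, had 64.7 and 45.9 at 15 min and 12.3 and 5.08 at 60 min. Dll1, a Notch ligand, had 86.5 and 67.1, then 36.2 and 32.8. Hes6, an antagonist of Hes1, had 125 and 118, then 71.9 and 53.8, and the receptor Notch1 had 58.2 and 53.5, then 41.4 and 42.3. Lfng had the largest difference of these and also the widest spread between its libraries. Dll1 and Hes6 are members of the proneural list as well.

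Genes of BMP, hedgehog and FGF signalling were listed in 2 groups. Of 18 BMP and TGF-beta genes 13 lay below the median of all genes (median −0.28). Id4 and Id2, inhibitors of proneural factors, had 125 and 89.8, then 50.2 and 38.7, and 191 and 220, then 103 and 99.5. Smad7, a feedback inhibitor of these receptors, stood on the other side, with 11.8 and 11.2, then 16.3 and 22.8. Of 20 hedgehog and FGF genes 13 lay below (median −0.27, or −0.16 relative to all genes, which was −0.29 without 60 min s1 and −0.095 without 60 min s2), among them the hedgehog co-receptors Gas1 (91.0 and 76.3, then 35.8 and 26.04), Boc (35.7 and 30.5, then 21.99 and 17.1) and Cdon (288 and 219, then 181 and 131). The adhesion protein gene Flrt3 was higher, at 23.6 and 23.99, then 42.7 and 43.6.

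Radial glia and pan-neuronal lists lay closer to all genes. Of 34 progenitor and radial glia markers 15 lay above the median of all genes (median −0.15). Structural genes of radial glia overlapped between the times, such as Vim (2200 and 2017, then 2180 and 1945) and Fabp7 (478 and 400, then 463 and 377). The transcription factor Sox2 (136 and 86.6, then 77.7 and 62.8) and the Notch target Hes5 (36.3 and 29.7, then 24.2 and 24.1) were lower in value, while the transcription factor Pax6 overlapped (226 and 156, then 162 and 125). Of 33 pan-neuronal genes 18 lay above (median −0.09). Tubb3, the neuronal beta-tubulin, had 604 and 723, then 455.6 and 456.4, and Elavl4, a neuronal RNA-binding protein gene, 149 and 130, then 102.3 and 101.7, while Tubb2b overlapped, at 1772 and 2135, then 1777 and 1949. No member of either list passed.

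**Figure D4:**
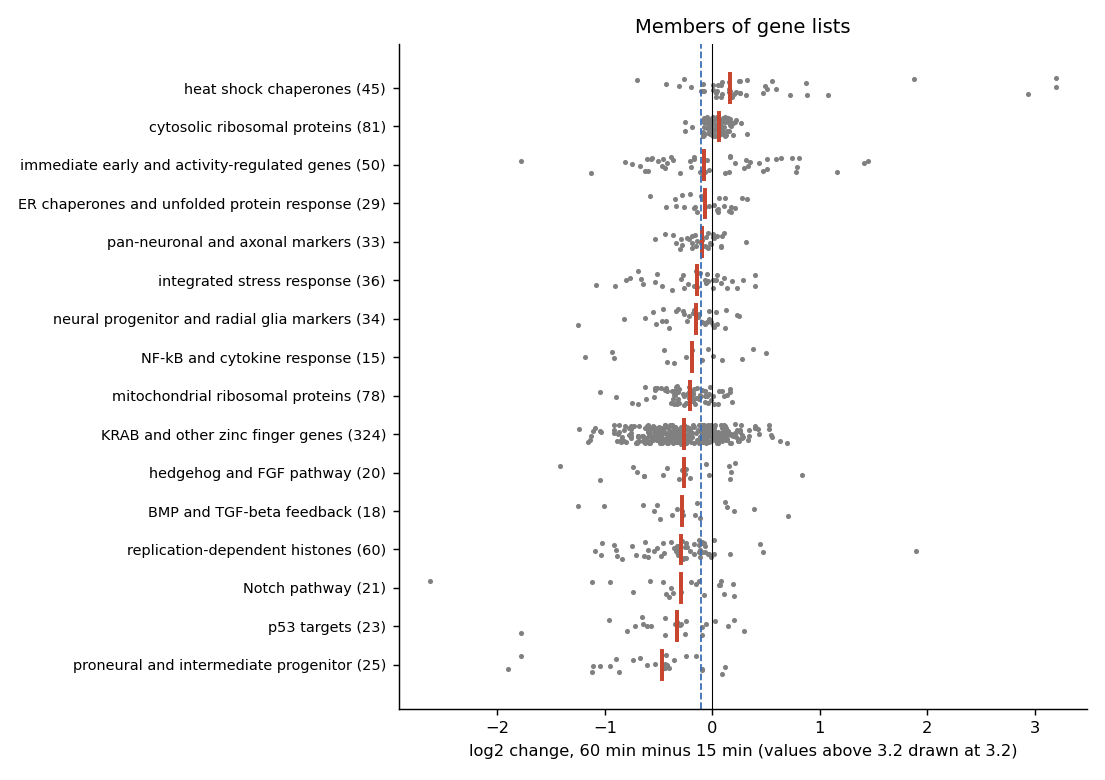
Log2 change from 15 to 60 min (x axis) of each tested member (grey points, vertical scatter has no meaning) of 16 gene lists, with the number of members in brackets, the list median in red and the median of all genes as a dashed line. Medians run from −0.47 for proneural and intermediate progenitor genes to 0.16 for heat shock chaperones.

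Targets of p53, which halts the cycle and triggers apoptosis after damage, were mostly lower. Of 23 tested, 16 lay below the median of all genes (median −0.33). The 60 min libraries were below for 14 (60.9%), against 31.8% of all genes and 34.7% of protein-coding genes. Besides Btg2, Sesn1, a sestrin that restrains mTORC1, had 34.8 and 35.9 at 15 min and 17.3 and 17.99 at 60 min. Bbc3, the gene of the apoptosis inducer PUMA, had 12.02 and 14.2, then 8.35 and 6.06. The genes Trp53 (71.1 and 65.6, then 74.9 and 82.9) and Mdm2 (85.3 and 86.7, then 90.8 and 100.4), for p53 and its ubiquitin ligase, were both slightly higher in value.

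Of 15 NF-kB and cytokine genes 8 lay below the median of all genes (median −0.19). Nfkbia, the inhibitor that NF-kB itself induces, had 22.6 and 24.5 at 15 min and 9.84 and 9.77 at 60 min (adjusted p = 0.0992). Socs3, an inhibitor of cytokine receptors, had 8.59 and 9.28, then 3.50 and 4.98. Both are feedback genes whose groups did not overlap, and neither passed.

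The series concerns the integrated stress response, in which phosphorylated eIF2α raises translation of ATF4 and ATF4 with CHOP then induce their targets. Of 36 genes of this response 16 lay above the median of all genes and 20 below (median −0.14), and none passed. Both 60 min libraries were below both 15 min libraries for 11 (30.6%), close to 31.8% of all genes. They were above for 1 (2.78%), against 15.5% of all genes and 10.6% of protein-coding genes.

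Atf4 overlapped between the times, at 354 and 458, then 360 and 370. Ddit3, which encodes CHOP, had 81.2 and 109, then 71.3 and 64.1. Ppp1r15a, whose product GADD34 dephosphorylates eIF2α, had 21.2 and 26.1, then 11.9 and 14.3. Their log2 changes were −0.14 ± 0.19, −0.47 ± 0.19 and −0.80 ± 0.18.

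Trib3, which encodes a pseudokinase and is a target of CHOP, had 13.04 and 19.7 at 15 min and 7.68 and 6.41 at 60 min. Gtpbp2, linked to rescue of stalled ribosomes, had 68.5 and 75.6, then 40.1 and 35.9. Cebpg, a partner of ATF4, was the 1 member whose 60 min libraries were both higher, at 165 and 180, then 230 and 226. Genes of the list without overlap lay mostly on the lower side, as did protein-coding genes in general (34.7% below and 10.6% above). The list's median was near that of all genes.

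Of 29 genes of ER chaperones and the unfolded protein response 19 lay above the median of all genes (median −0.07). Hspa5, the ER chaperone BiP, had 174 and 186 at 15 min and 122 and 146 at 60 min, and Dnajb9, its Hsp40 partner, 14.2 and 12.4, then 9.09 and 7.97. Sel1l, a subunit of the machinery that removes misfolded ER proteins, had 60.7 and 62.7, then 47.7 and 48.5. Calr, the lectin chaperone calreticulin, was higher, at 352 and 372, then 421 and 456.

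Genes of the translation machinery differed little. Of 81 cytosolic ribosomal protein genes 78 lay above the median of all genes, though the median log2 change was only 0.06. The 60 min libraries were above for 12 (14.8%) and below for 1 (1.23%). These shares were 15.5% and 31.8% over all genes and 10.6% and 34.7% over protein-coding genes. Over protein-coding genes with a mean of 500 or above they were 7.91% and 9.3%. The smallest p-values belonged to Rps2 (452 and 529, then 568 and 660) and Rps27 (335 and 390, then 435.2 and 435.4), and neither passed. Rps19 had 2583 and 2466 at 15 min and 3154 and 2627 at 60 min, and Rpsa 1201 and 1086, then 1462 and 1217. The count above the median reflects a small offset that is shared by nearly the whole list.

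Of 27 elongation and termination factors 17 lay above the median of all genes (median −0.03). Eef1a1, which delivers aminoacyl-tRNA, overlapped at 6422 and 5288, then 7048 and 5730. Eef2, the translocation factor, had 1344 and 1381, then 1513 and 1508. Eef2k, the kinase that inhibits it, had 51.6 and 35.8, then 33.9 and 34.4, and Pelo, a ribosome rescue factor, 14.04 and 13.2, then 10.7 and 8.54. None passed, and the log2 changes were 0.15 ± 0.18 for Eef2 and −0.33 ± 0.20 for Eef2k. Initiation factors (24 of 40 above the median of all genes), aminoacyl-tRNA synthetases (14 of 20) and proteasome subunits (23 of 35) had medians between −0.04 and −0.03. The members with the smallest p in these 3 lists were the initiation genes Eif2b3 (29.1 and 30.5, then 22.6 and 19.4) and Eif2s3y (16.2 and 15.7, then 12.7 and 12.6), the synthetase genes Cars (165 and 172, then 197 and 191) and Dars (40.2 and 33.3, then 33.04 and 29.4), and the proteasome genes Psmd1 (121 and 115, then 144 and 138) and Psma2 (126 and 125.9, then 109 and 105). None of the 6 passed, and they were chosen for the smallest p in each list.

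Mitochondrial ribosomal proteins, encoded in the nucleus, went the other way from cytosolic ones. Of 78 tested, 58 lay below the median of all genes (median −0.21). The 60 min libraries were below for 35 (44.9%), against 31.8% of all genes and 34.7% of protein-coding genes. Mrpl44 had 25.7 and 23.5 at 15 min and 13.8 and 11.8 at 60 min, Mrpl41 had 44.2 and 38.1, then 27.8 and 20.7, and Mrpl17 had 66.7 and 60.3, then 39.99 and 22.7. Of 73 oxidative phosphorylation genes of the nucleus 43 lay below (median −0.14), among them the complex I genes Ndufa3 (33.0 and 36.2, then 24.7 and 19.2) and Ndufb4 (42.5 and 37.5, then 32.4 and 28.1). The 13 proteins encoded in mitochondria had a median of −0.06, and mt-Nd1 overlapped at 3073 and 2132, then 2453 and 1774, while mt-Nd3 had 274 and 259, then 241 and 227. Without 60 min s2, which had the largest share of mitochondrial ribosomal RNA, the median of the mitochondrial ribosomal list relative to all genes was −0.006 and that of the oxidative phosphorylation list 0.05. The part of that share in these values was not tested.

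Zinc finger genes, the largest family of transcription factors, were lower in value as well. Of 324 tested, 206 lay below the median of all genes (median −0.26). The 60 min libraries were below for 182 (56.2%) and above for 33 (10.2%). These shares were 31.8% and 15.5% over all genes and 34.7% and 10.6% over protein-coding genes. Zfp386 had 40.2 and 37.6 at 15 min and 17.5 and 16.3 at 60 min (adjusted p = 0.0992), and Zfp647 had 27.3 and 27.5, then 12.6 and 12.02. Zfp410 was on the higher side, at 56.7 and 63.3, then 88.5 and 98.3. Relative to all genes the list's median was −0.16, and it ran from −0.27 to −0.16 under the same alternatives.

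The other protein-coding genes among the 15 named on the lower side had varied roles. Atoh8, a bHLH factor, had 28.4 and 23.7 at 15 min and 8.38 and 7.46 at 60 min (adjusted p = 0.0899). Fam110a, a centrosome protein gene, had 33.5 and 26.4, then 8.84 and 7.31 (adjusted p = 0.0899). Ppan, a ribosome biogenesis factor, had 31.5 and 25.5, then 9.07 and 10.4. Cxxc5 (67.5 and 67.2, then 31.9 and 26.6), Exo5, a DNA exonuclease (22.7 and 22.9, then 9.51 and 9.01), and Abtb1 (21.9 and 19.3, then 7.29 and 8.23) completed the protein-coding genes of that rule with those named above. In every one the highest 60 min value was under 0.5 of the lowest 15 min value.

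Histone messages of the replication-dependent genes lack poly(A) tails and turn over with DNA synthesis. Of 60 tested, 45 lay below the median of all genes (median −0.29). The 60 min libraries were below for 21 (35.0%), near the 31.8% of all genes. They were above for 2 (3.33%), against 15.5% of all genes and 10.6% of protein-coding genes. Hist1h1c, a linker histone, had 247 and 259 at 15 min and 143 and 129 at 60 min, and Hist1h1e had 472 and 353, then 246 and 147. Hist1h4n went the other way, from 32.3 and 26.9 to 137 and 92.8 without passing (adjusted p = 0.101). Histone genes are near-identical in part, so reads may be divided among them. The whole list summed to 29363 and 21294 at 15 min and to 27901 and 17232 at 60 min, which overlap. Relative to all genes its median was −0.19, and it was 0.05 without 60 min s2, so its direction rests on that library. Of 52 cell cycle genes 34 lay below (median −0.17, and 0.18 or 0.12 relative to all genes without 15 min s1 or 60 min s2), with Ccnb1, the mitotic cyclin B1, at 67.7 and 62.2, then 45.03 and 41.4, and Cdc25a, a cell cycle phosphatase, at 30.8 and 24.7, then 17.6 and 15.8.

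Splicing regulators included a few with separate groups. Of 34 SR and hnRNP genes 25 lay above the median of all genes (median −0.05). Relative to all genes the list's median was 0.06, but it was −0.15 without 15 min s2 and −0.07 without 60 min s1, so its side rests on single libraries. In this list Srsf5 (513 and 415, then 343 and 267) and Srsf3 (420 and 388, then 310 and 268) were lower in value. Of 13 kinases of the CLK, SRPK and DYRK families, which phosphorylate SR proteins, 7 lay above. Dyrk1b had 15.6 and 15.99 at 15 min and 7.57 and 5.98 at 60 min, and Dyrk3 11.4 and 9.26, then 5.24 and 3.65. Clk4 had 105 and 96.6, then 171 and 117, and Clk1 110 and 89.8, then 76.1 and 84.0. Rsrp1, an arginine and serine rich protein gene outside these lists, had 186 and 191, then 71.3 and 94.2. The cold-inducible RNA-binding proteins Cirbp (294 and 229, then 214 and 136) and Rbm3 (279 and 252, then 205 and 181) were lower in value at 60 min than at 15 min without passing. The controls had 175 and 168 for Cirbp, below both 15 min libraries and within the range of the 60 min libraries, and 206 and 266 for Rbm3.

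Metabolic and antioxidant lists held separate groups for a few genes. Of 26 cholesterol synthesis genes 18 lay below the median of all genes (median −0.23, and 0.02 relative to all genes without 60 min s1), with Hsd17b7, an enzyme of the pathway, at 20.4 ± 0.736 and 12.1 ± 1.30 (SD, n = 2 each). Of 28 NRF2 and metallothionein genes 15 lay below (median −0.12), with Nfe2l2, which encodes NRF2, at 15.7 and 14.9, then 9.71 and 7.75, and its inhibitor Keap1 at 28.9 and 25.8, then 18.2 and 18.97. Of 13 clock genes 5 lay below (median −0.00), with the repressors Ciart at 7.36 and 9.01, then 3.69 and 3.63, and Bhlhe40 at 12.1 and 11.6, then 9.06 and 6.57. Of 11 interneuron genes 5 lay below (median −0.07), with the chemokine receptor gene Cxcr4 lower in value, at 18.8 and 20.5, then 11.9 and 11.3. Of 28 projection neuron factors 13 lay below (median −0.07), with the upper-layer factor Pou3f2 at 17.7 and 15.8, then 11.3 and 10.9, and Foxp2, a factor of deep layers, at 15.1 and 18.9, then 21.8 and 25.8. None of these genes passed.

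Among nuclear non-coding RNAs, Malat1 and Miat stood apart. Malat1, an abundant RNA of nuclear speckles, had 3873 and 3371 at 15 min and 1347 and 1485 at 60 min, with controls of 1150 and 1317. Miat, an RNA of neuronal nuclei, had 88.7 and 75.7, then 23.1 and 23.9, with controls of 71.4 and 122.8. The 60 min values of Malat1 thus lay closer to its controls than the 15 min values did, while for Miat the 15 min values lay within the range of the controls. Their log2 changes were −1.35 ± 0.20 (adjusted p = 0.14) and −1.76 ± 0.15 (adjusted p = 0.054). Neat1, the RNA of paraspeckles, was low, at 6.64 and 6.77, then 6.10 and 5.18.

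Non-coding genes that host microRNAs were examined as a group, and the table measures these host transcripts, not mature microRNAs. Of 27 tested, 16 were lower and 11 higher in value (median log2 change −0.16). Both 60 min libraries lay below both 15 min libraries for 14 of the 27 and above for 6. The shares over all genes were 31.8% below and 15.5% above. Over long non-coding RNAs they were 15.7% below and 51.8% above. The hosts farthest down carry microRNAs of neural progenitors and neurons, and the mature sequences, from RefSeq on GRCm38.p6, are shown with the seed, bases 2 to 8, in capitals, because the seed sets which targets a microRNA binds.
miR-100-5p: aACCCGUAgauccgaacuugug
miR-125b-5p: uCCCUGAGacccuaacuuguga
miR-17-5p: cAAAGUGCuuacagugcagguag
miR-20a-5p: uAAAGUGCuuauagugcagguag
miR-18a-5p: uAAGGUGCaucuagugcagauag
miR-19b-3p: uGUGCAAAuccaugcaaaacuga
miR-92a-3p: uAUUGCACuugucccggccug

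The host of miR-100, miR-125b and a copy of let-7a, 3110039I08Rik, had 180 and 194 at 15 min and 46.7 and 58.2 at 60 min (adjusted p = 0.0663). Gm28119, which holds the same miR-125b gene, had 41.6 and 39.0, then 8.77 and 11.6 (adjusted p = 0.0663). Mir17hg carries the cluster of miR-17, miR-18a, miR-19a, miR-19b, miR-20a and miR-92a, in which miR-17 and miR-20a share the seed AAAGUGC. It had 10.6 and 10.4, then 2.17 and 2.00 (adjusted p = 0.0992). In all 3 hosts the 60 min values were under 0.4 of those at 15 min.

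Mir124a-1hg, a host of the neuronal miR-124, had 41.2 and 40.4 at 15 min and 12.9 and 16.1 at 60 min (adjusted p = 0.0941). The other host of miR-124 tested, Mir124-2hg, overlapped, at 61.2 and 31.7, then 34.3 and 50.8. Mir9-3hg, a host of miR-9, had 110 and 87.2, then 59.6 and 47.6. Mir99ahg, which holds another miR-125b gene with miR-99a and let-7c, was higher in value, at 22.9 and 27.98, then 37.7 and 51.5. Hosts of 1 microRNA family therefore did not all lie on the same side.

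Gene classes differed in their values, with non-coding loci mostly higher at 60 min. Protein-coding genes (10132) had a median log2 change of −0.13, and both 60 min libraries were above both 15 min libraries for 10.6% and below for 34.7%. Long non-coding RNAs (655) had a median of 0.31, with 51.8% above and 15.7% below. Loci of no assigned type (210), which the annotation marks as still to be tested experimentally, had a median of 0.47, with 79.5% above and 2.86% below. Pseudogenes (434) had a median of 0.24. Of genes at least 2-fold higher without overlap, 33 of 118 were protein coding, against 119 of 157 of those at least 2-fold lower. The order from protein-coding genes through long non-coding RNAs to these loci held with quantile normalisation, the lower floor and each library left out. It also held with median-of-ratios scaling, which shifts all genes nearly alike and so could hardly change it. Medians ran from −0.17 to −0.03 for protein-coding genes and from 0.24 to 0.41 for long non-coding RNAs. For the loci they ran from 0.36 to 0.56. The 60 min libraries also had more genes at 1 or above, as given in the opening, and the part of that in these medians was not tested.

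The loci of no assigned type were set against their neighbours in the GENCODE annotation of GRCm38. Of the 210, 79 overlap a protein-coding gene on the same strand (median 0.51, 88.6% above) and 22 lie within 20 kb downstream of one on its strand (median 0.45, 95.5% above). For the 60 pairs of an overlapping locus and host that could be compared, the locus had the higher log2 change in 55, with medians of 0.53 for loci and 0.05 for hosts. The 23 that overlap one on the opposite strand only had a median of 0.43 (69.6% above), and the 86 elsewhere one of 0.44 (69.8% above). Values lay on the higher side in all 4 positions, with the largest shares on the strand of a gene.

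Gm48565, which passed near the threshold, lies 10882 bases downstream of Hspa8 on the same strand. Gm10616, a locus 47 bases from Polg on the opposite strand, had 9.29 and 8.67 at 15 min and 86.0 and 55.3 at 60 min (adjusted p = 0.054), with controls of 1.503 and 0.921. Polg, which encodes the mitochondrial DNA polymerase, had 58.0 and 58.7, then 44.7 and 42.5. Fcho2, an endocytic protein gene that Gm47551 overlaps, had 47.4 and 44.5, then 29.7 and 32.2. In both of these neighbours the 60 min values were lower while those of the locus were higher. The long non-coding RNA 2700069I18Rik had 1.46 and 1.17, then 8.95 and 9.86. Whether transcription from neighbouring genes contributes to such loci was not tested.

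Within protein-coding genes the number of exons and the span of the gene went with the difference. The median log2 change was −0.23 for 212 genes of 1 exon, −0.20 for 777 genes of 2 to 3 exons, −0.17 for 3980 of 4 to 9, −0.11 for 3474 of 10 to 19 and −0.01 for 1689 genes of 20 or more. By span it was −0.19 for 997 genes under 5 kb and −0.00 for 1519 genes of 100 kb or more. Of genes of 2 to 3 exons 46.1% had both 60 min libraries below both 15 min libraries, against 21.3% of genes of 20 or more exons. Without 15 min s1 the median was −0.135 for 1 exon, −0.217 for 2 to 3 and 0.002 for 20 or more. Without 60 min s2 these were −0.11, −0.172 and −0.01. The order of genes of 1 exon and of 2 to 3 exons thus rests on single libraries. Genes at 10 to 20 had a median of −0.19 and those at 500 or above −0.02, so the level of a gene goes with its difference too. The share of genes at least 2-fold lower without overlap was 4.72% for 1 exon, 4.12% for 2 to 3 exons and 0.237% for 20 or more. The share at least 2-fold higher was 4.72%, 0.257% and 0.0592%, so genes of 1 exon had equal shares on both sides. Of the 5 protein-coding genes that passed, Hspa1a, Hspa1b, Hspb1 and Btg2 have 3 or fewer exons and Mat2a has 9. These medians describe genes, which are not independent replicates, and no test was made of them.

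**Figure D5:**
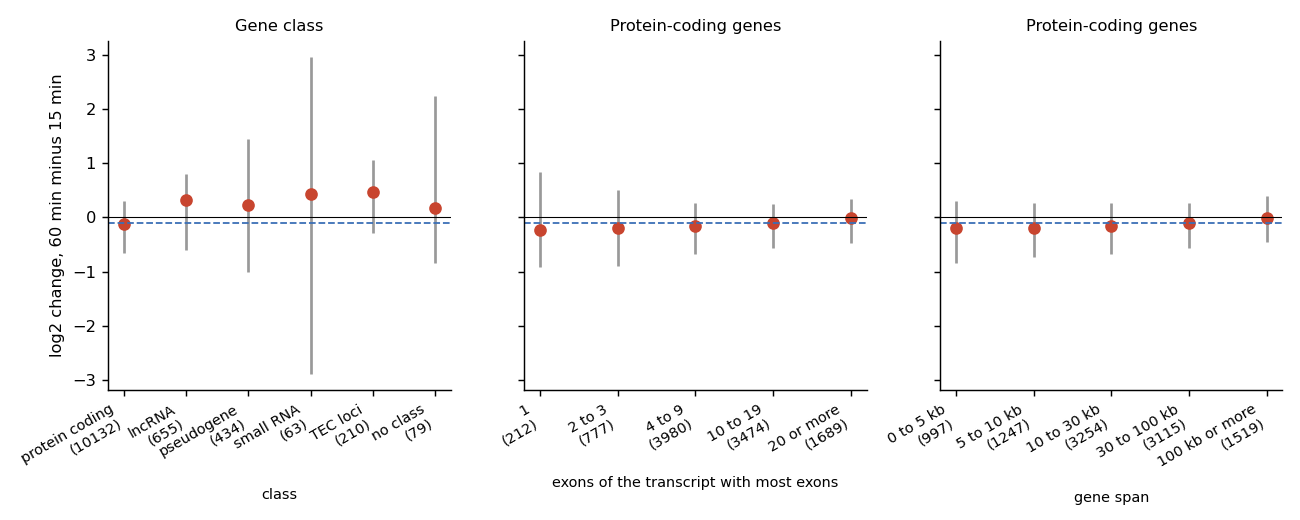
Median log2 change from 15 to 60 min (red points) with the 5th to 95th percentile of genes (grey bars) by gene class (TEC loci are those of no assigned type), and within protein-coding genes by exon number and by gene span, with the number of genes in brackets and the median of all genes as a dashed line. Medians lie above the dashed line for the non-coding classes and rise from −0.23 for genes of 1 exon to −0.01 for those of 20 or more.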

How the data were processed

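The authors deposited 1 table of normalised signal per Ensembl gene and library, called TPM in its name. Column totals differ between libraries, so each carries a further factor that is not stated. Tools were kallisto and sleuth with build GRCm39, per the submitters' processing notes. Their versions, the annotation release and the use of strand are not given in the sources used. Column names hold a group with suffix s1 or s2 and were mapped to groups only. Symbols came from a table of Ensembl IDs (52028 of 55538 genes). Gene class, exons and neighbours came from GENCODE on GRCm38 and sequences from RefSeq.

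The 4 libraries at 42 °C were fitted with limma 3.58.1 (R 4.3.3) on log2(value + 1), with a trend, for genes whose mean reached 5. Two-sided p-values were adjusted by Benjamini and Hochberg over the 11575 genes, with a threshold of 0.05. Such fold changes understate low genes. Tables and figures were made with pandas 2.3.3 and matplotlib 3.10.9.

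The members, lists and rules were chosen with earlier results of these data known. Named were, per direction, 15 genes with an assigned symbol and 3 others, called or filled by smallest p without overlap. Also named were called members of each list or, where none passed, those of smallest p, whether or not their groups overlapped. By this rule 26 genes were also named always. Genes outside that rule were chosen after their values were seen: Neurog1, Neurog2, Eomes, Neurod6, Hes6, Notch1, Boc, Cdon, Smad7, Sox2, Pax6, Vim, Fabp7, Tubb2b, Dnaja4, Dnajb2, Dnajb5, Chordc1, Klf6, Ccn1, Gadd45b, Ier2, Arl4d, Sesn1, Bbc3, Trp53, Mdm2, Hist1h1e, Cebpg, Calr, Eef1a1, Rps19, Rpsa, Mrpl17, Clk1, Clk4, Rsrp1, Zfp410, Gm10616, Gm43332, 2700069I18Rik, Polg, Fcho2, Hmgb1, Neat1, Mir9-3hg, Mir124-2hg and Mir99ahg. Some genes that the rule names are not reported here. Alternatives were other pseudocounts, floors, scalings and fits, a replicate block and leaving out each library.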

Additional observations from a re-analysis of the deposited data

How the results depend on the processing

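The count of 9 genes was 6 to 11 under the other pseudocounts, floors of 1 and 20, scalings and limma settings tried, with 6 to 9 of the 9 among them. It was 0 with no filter on low values, where 5243 genes had an unadjusted p under 0.05, 4 with all 6 libraries in the fit and 34 (16 higher, 18 lower) at an adjusted p of 0.1. With 1 library left out it ran from 10 (without 15 min s2) to 27 (without 60 min s1), was 16 without 60 min s2, and held 7 of the 9 each time, without Btg2 and Mat2a. The lone library of a group is then assumed to vary like the others.

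With a replicate block by suffix the count was 1314 (352 higher, 962 lower), the 9 genes included, and 126 of the 173 genes named by rule or added later passed, so most genes given as not passing did pass in that fit. Libraries of the same suffix deviated together, with a correlation of 0.466 between 15 and 60 min, 0.27 between 15 min and control and 0.306 between 60 min and control, but 2 suffixes that no label ties to a shared culture were not taken as pairs.

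Of 32 gene lists, the median relative to all genes changed sign for 21 in at least 1 of the settings given for the chaperones. None of the 9 changed sign with pseudocounts of 0.1 or 5, median-of-ratios scaling, all 6 libraries, the replicate block or 1 library left out. With median-of-ratios scaling the log2 change turned to 0.04 for Fabp7, 0.041 for Tubb2b and 0.072 for Vim. With 1 library left out it ran from −0.326 to 0.044 for Atf4, −0.016 to 0.527 for Dnaja1, −0.024 to 0.274 for Eef1a1, −0.213 to 0.084 for Fabp7, −0.656 to 0.445 for Hmgb1, −0.0 to 0.243 for Hsf1, −0.198 to 0.07 for Tubb2b and −0.115 to 0.049 for Vim, and the cause was not tested. Low and short genes are the least certain, since depth is unknown and 2 libraries per group give little precision.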
